A study of Mus musculus with 10 samples.

Results

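The genes of glycolysis and of the cellular response to low oxygen were followed in cells grown from the left atrial appendage of adult mice. The set held 38 genes, of which 21 act in glucose uptake, glycolysis and the fate of pyruvate and lactate and 17 belong to the hypoxia response. All 38 were found by gene symbol among the 36172 genes listed, and 38 of 38 were among the 14253 genes tested. The study compared the transcriptomes of 5 cell types, with 2 sorted samples of each. B-type cells were primary c-kit+/CD45+ cells obtained with weak digestion by trypsin at 0.05%. C1 cells came from passage 6 of B-type cells and were c-kit+/CD45-, C2 cells came from passage 8 and were c-kit-/CD45-, and C3 cells came from passage 10 and were c-kit-/CD45-. A-type cells were primary c-kit+/CD45- cells obtained with strong digestion by trypsin at 0.25%. All came from C57BL/6 mice of 8 to 12 weeks, with no transgene or drug named. The labels give collagenase D at 0.1% and 3 digestions of 5 min for the explants, which then grew in 1 serum-containing medium. The sources used here give neither the number of animals behind a sample nor the oxygen in culture. A p-value sets a difference against the spread between the 2 libraries of a type, pooled over all 5 types. Those libraries may be technical repeats.

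Glycolysis turns glucose into pyruvate in the cytosol, and lactate dehydrogenase together with lactate export lets it run on when little pyruvate enters the mitochondria. The hypoxia-inducible factors (HIF) are pairs of a stable and an oxygen-regulated subunit. Prolyl hydroxylases mark the oxygen-regulated subunit for breakdown when oxygen is present, and in low oxygen HIF raises transcription of glucose transporters, of most glycolytic enzymes, and of genes of blood vessel growth, pH control and mitochondrial turnover. Cultured stem and stromal cells are known for leaning on glycolysis, and heart muscle for leaning on fatty acid oxidation.

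As the values themselves show, the deposited log2 values had the median of each gene over the 10 libraries taken away, and they are called relative log2 values here. Because of that, 0 marks a gene's median library, differences between libraries can be read, but a level can be recovered just for genes with 2 or more libraries at a shared floor. That held for 0 of the 38 genes, so no level in reads is given for them and no gene is ranked against another by level. Sequencing depth, estimated from the spacing of low values, differed 11.5-fold between the deepest C3 library and the shallowest B library, and the C1 libraries were at 0.993 and 1.498 on the same relative scale. The labels were checked on genes of known level. Ptprc, which encodes CD45, had 2823 and 2723 normalized reads in both B libraries, at most 1.008 in the 6 C libraries, and 6.72 and 82.1 in those of A. Kit had 22.9 and 12.7 for B, 35.3 and 66.4 for C1, at most 3.11 in C2 and C3, and 3.36 and 72.3 in A, where the limit that a count of 0 allows is 5.04 and 5.74. The Y-linked gene Ddx3y had 555 and 414 normalized reads for B, 1344 and 1247 for C1, 57.2 and 86.2 for C2, 1 (the floor) for both C3 libraries, and 618 and 353 for A. The X-linked RNA Xist, whose level is not known, had relative log2 values of 4.92 and 4.74 for B and -4.82 and -5.24 for C1. It stood at -5.8 and -4.61 for C2, -0.17 and 0.17 for C3, and 1.09 and 4.12 for A. The cultures given as successive passages of B-type cells thus differed in Y-linked RNA and in Xist, and the passage and the origin of a culture cannot be told apart. The A libraries stood apart from each other: their genes differed by a root mean square of 1.06 on the log2 scale, against 0.435 to 0.52 within the other types. Comparisons with A thus use a spread pooled with types whose libraries lay closer.

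C1 cells were the low point of the set. The mean over both libraries was lowest in C1 for 27 of the 38 genes (71.1%), against 23.4% of all genes tested. For 23 of the 38 (60.5%) both C1 libraries lay below the other 8, against 12.7% of all genes. The median relative log2 value over the 21 glycolytic genes was -1.71 and -1.58 in C1, and between -0.24 and 0.13 in the other 8 libraries. Over the 17 hypoxia genes it was -0.88 and -0.99 in C1, against a range of -0.64 to 0.57 elsewhere. By limma's F-test across the 5 types, adjusted by the Benjamini-Hochberg method over all genes, 36 of 38 genes differed somewhere with a range of type means of at least 1, against 68.7% of all genes. The exceptions were Hk1, a hexokinase found in most tissues, and Bnip3l, a mitophagy receptor.

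**Figure D1:**
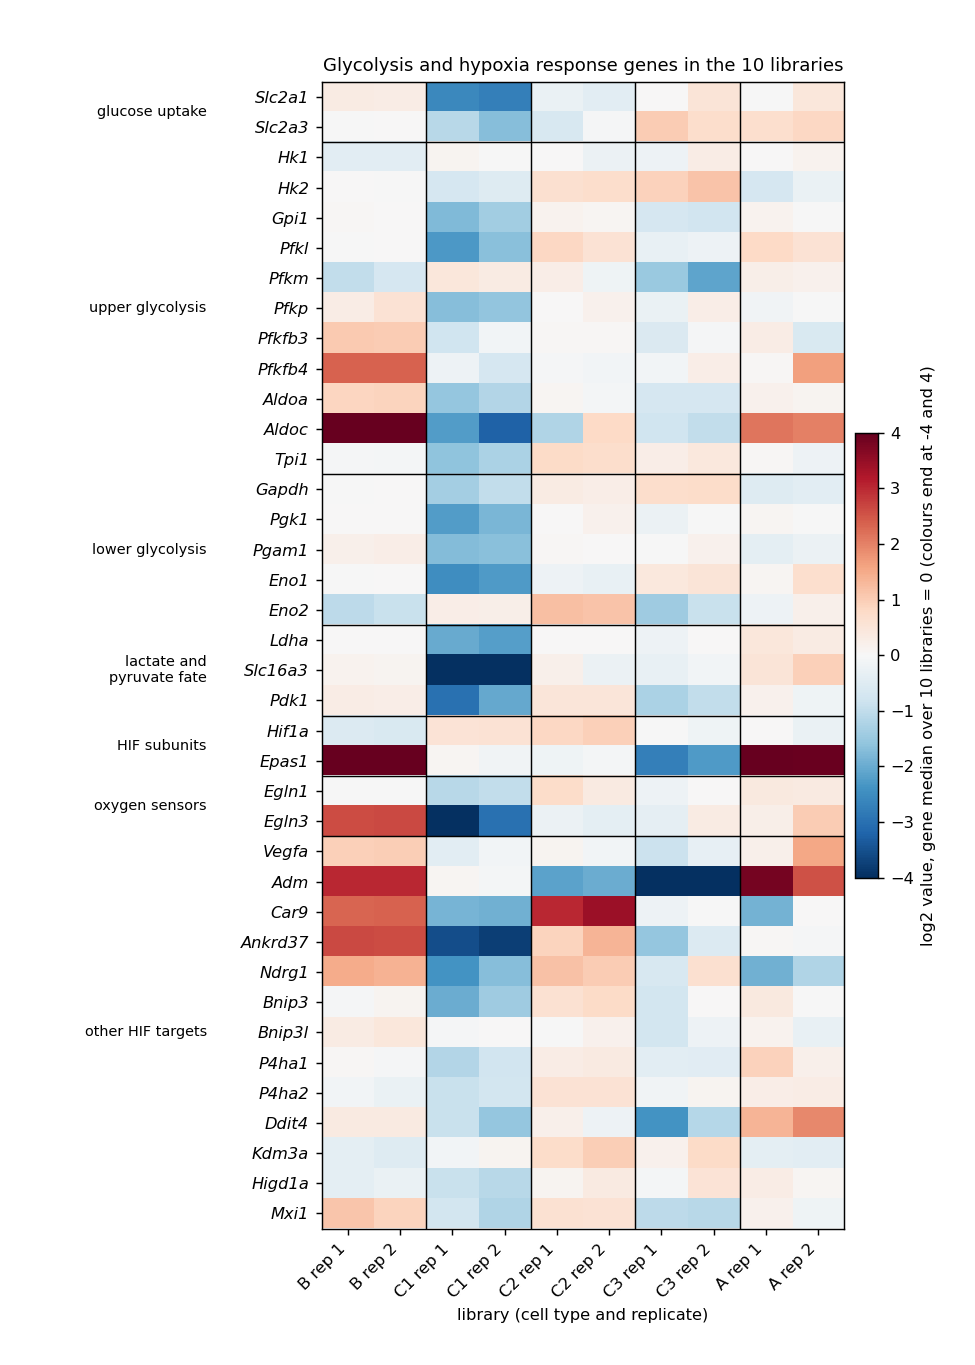
Relative log2 values of the 38 genes (rows, by role) in the 10 libraries (columns, 2 per cell type), with each gene's median at 0. The columns of C1 are blue for most genes, while Pfkm, Eno2 and Hif1a are pale red there, Adm steps down along B, C1, C2 and C3, and Epas1 is deep red in B and A.

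Glucose enters through the transporters Slc2a1 (GLUT1) and Slc2a3 (GLUT3). Slc2a1 stood at relative log2 values of 0.34 and 0.31 for B, -2.57 and -2.74 for C1, -0.27 and -0.42 for C2, 0.02 and 0.50 for C3, and -0.02 and 0.45 for A. Slc2a3 stood at -0.02 and 0.02 for B, -1.12 and -1.71 for C1, -0.63 and -0.04 for C2, 1.03 and 0.70 for C3, and 0.66 and 0.84 for A. Both C1 libraries lay below all others for both transporters. C3 and A, whose libraries overlapped, were highest for Slc2a3.

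The upper steps of glycolysis phosphorylate glucose, turn it into fructose bisphosphate and split it. Hk2, the hexokinase that HIF and insulin raise, had relative log2 values of 0.03 and -0.03 for B, -0.68 and -0.52 for C1, 0.64 and 0.69 for C2, 0.93 and 1.15 for C3, and -0.68 and -0.26 for A. The low values were in C1 and A, which overlapped, and the high ones in C2 and C3. Hk1 stood at -0.43 and -0.42 for B, 0.10 and -0.02 for C1, 0.03 and -0.22 for C2, -0.21 and 0.31 for C3, and 0.02 and 0.13 for A, so that its type means spanned 0.50 (F-test adjusted p = 0.176).

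Gpi1, the isomerase of glucose 6-phosphate, had relative log2 values of 0.04 and 0.02 for B, -1.76 and -1.39 for C1, 0.14 and 0.09 for C2, -0.66 and -0.76 for C3, and 0.15 and -0.02 for A. Of the subunits of phosphofructokinase, the committed step, Pfkl (liver type) stood at -0.01 and 0.01 for B, -2.3 and -1.68 for C1, 0.84 and 0.58 for C2, -0.31 and -0.21 for C3, and 0.80 and 0.59 for A. Pfkp (platelet type) stood at 0.29 and 0.59 for B, -1.71 and -1.58 for C1, 0.01 and 0.18 for C2, -0.26 and 0.25 for C3, and -0.15 and -0.01 for A. These 3 genes shared 1 pattern, with both C1 libraries below the other 8. Pfkm, the muscle type of the same enzyme, went another way, with -0.97 and -0.67 for B, 0.44 and 0.32 for C1, 0.25 and -0.17 for C2, -1.5 and -2.11 for C3, and 0.24 and 0.17 for A. It was low in B and lowest in C3, both C1 libraries lay above the other 8, and the C2 and A libraries overlapped.

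Pfkfb3 and Pfkfb4 make and degrade fructose 2,6-bisphosphate, the activator of phosphofructokinase. Pfkfb3 had relative log2 values of 1.06 and 1.02 for B, -0.79 and -0.10 for C1, 0.05 and 0.04 for C2, -0.57 and -0.04 for C3, and 0.29 and -0.60 for A. Pfkfb4 stood at 2.37 and 2.36 for B, -0.21 and -0.66 for C1, -0.05 and -0.10 for C2, -0.12 and 0.28 for C3, and 0.05 and 1.63 for A. Both were highest in the B libraries, which no other library reached, and the A libraries differed from each other by more than any other pair for both genes. Pfkfb4 was lowest in C1, and for Pfkfb3 the C1, C3 and A libraries overlapped.

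Aldolase splits the sugar. Aldoa, the common form, had relative log2 values of 0.86 and 0.88 for B, -1.54 and -1.18 for C1, 0.09 and -0.09 for C2, -0.66 and -0.66 for C3, and 0.17 and 0.10 for A. Aldoc, the form known from brain, ranged far more widely, with 6.35 and 6.53 for B, -2.23 and -3.24 for C1, -1.21 and 0.81 for C2, -0.81 and -0.98 for C3, and 2.15 and 2.03 for A. For both aldolases B was highest and C1 lowest with no overlap, and for Aldoc the C2 libraries differed by more than 1 log2 unit and enclosed both C3 libraries. Tpi1, which interconverts the triose phosphates, stood at -0.05 and -0.08 for B, -1.61 and -1.27 for C1, 0.75 and 0.71 for C2, 0.26 and 0.41 for C3, and 0.05 and -0.21 for A, again lowest in C1 and highest in C2.

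The lower steps recover ATP. Gapdh, which is often used as a reference gene, had relative log2 values of -0.02 and 0.02 for B, -1.36 and -0.99 for C1, 0.34 and 0.26 for C2, 0.69 and 0.72 for C3, and -0.53 and -0.42 for A. Pgk1, the first ATP-making kinase of the pathway, stood at 0.01 and 0.02 for B, -2.24 and -1.82 for C1, 0.01 and 0.16 for C2, -0.24 and -0.01 for C3, and 0.08 and -0.01 for A. Pgam1, a phosphoglycerate mutase, stood at 0.19 and 0.27 for B, -1.72 and -1.66 for C1, 0.05 and 0.01 for C2, -0.01 and 0.18 for C3, and -0.40 and -0.22 for A. For each of the 3, the C1 libraries lay below the other 8, and for Pgk1 and Pgam1 the other types lay close together. Gapdh was highest in C3. Eno1, the widespread enolase, stood at -0.01 and 0.01 for B, -2.5 and -2.27 for C1, -0.20 and -0.30 for C2, 0.41 and 0.50 for C3, and 0.09 and 0.67 for A, lowest in C1 and with C3 and A at the top. Eno2, the enolase known from neurons, had -1.04 and -0.90 for B, 0.28 and 0.24 for C1, 1.2 and 1.13 for C2, -1.41 and -0.89 for C3, and -0.19 and 0.19 for A. It was highest in C2 and lowest in B and C3, which overlapped.

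At the end of the pathway, Ldha turns pyruvate into lactate, Slc16a3 (MCT4) exports lactate, and Pdk1 inhibits the entry of pyruvate into mitochondria. Ldha had relative log2 values of 0.00 and 0.01 for B, -2.01 and -2.19 for C1, 0.02 and 0.00 for C2, -0.19 and 0.00 for C3, and 0.44 and 0.34 for A. Slc16a3 stood at 0.14 and 0.11 for B, -8.01 and -6.36 for C1, 0.21 and -0.25 for C2, -0.29 and -0.11 for C3, and 0.53 and 0.94 for A. The other 8 libraries lay within -0.19 and 0.44 for Ldha and within -0.29 and 0.94 for Slc16a3, so both genes set C1 apart from types that otherwise lay close. Pdk1 stood at 0.29 and 0.25 for B, -2.98 and -2.05 for C1, 0.48 and 0.47 for C2, -1.27 and -0.97 for C3, and 0.16 and -0.16 for A. C1 was lowest for it and C3 the next lowest, with no overlap between them.

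The genes of the oxygen-regulated HIF subunits had orders of their own. Hif1a, the subunit that drives most glycolytic genes, had relative log2 values of -0.54 and -0.61 for B, 0.54 and 0.59 for C1, 0.84 and 0.95 for C2, -0.02 and -0.18 for C3, and 0.02 and -0.26 for A. It was highest in C2, next in C1 and lowest in B. Epas1 (HIF-2 alpha), known from endothelial cells and macrophages, stood at 5.61 and 5.5 for B, 0.07 and -0.13 for C1, -0.16 and -0.07 for C2, -2.72 and -2.27 for C3, and 4.35 and 3.96 for A. Its values were high in B and A, near the gene's median in C1 and C2, which overlapped, and lowest in C3.

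Prolyl hydroxylases sense oxygen, and transcription of both genes that follow is raised by HIF. Egln1 (PHD2), the main one in most cells, had relative log2 values of -0.03 and -0.03 for B, -1.1 and -0.99 for C1, 0.74 and 0.36 for C2, -0.19 and 0.03 for C3, and 0.39 and 0.37 for A. Egln3 (PHD3) stood at 2.62 and 2.63 for B, -4.3 and -2.99 for C1, -0.24 and -0.40 for C2, -0.35 and 0.33 for C3, and 0.24 and 1.0 for A. C1 was lowest for both with no overlap, and B was highest for Egln3.

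The remaining targets of HIF fell into several patterns. Ankrd37, an ankyrin-repeat protein of unsettled function, had relative log2 values of 2.64 and 2.61 for B, -3.54 and -3.77 for C1, 0.89 and 1.35 for C2, -1.56 and -0.55 for C3, and 0.06 and -0.06 for A. Car9, a carbonic anhydrase at the cell surface that exports acid, stood at 2.33 and 2.36 for B, -1.85 and -1.91 for C1, 3.03 and 3.42 for C2, -0.20 and -0.03 for C3, and -1.88 and 0.03 for A. Ndrg1, a stress-response gene, stood at 1.47 and 1.4 for B, -2.38 and -1.69 for C1, 1.18 and 1.0 for C2, -0.64 and 0.64 for C3, and -1.93 and -1.19 for A. Each of these was high in B, low in C1 and high again in C2, and lower in C3. In A they were near or below the median library, and 1 A library lay between the C1 libraries for Car9 and for Ndrg1.

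Bnip3, a mitophagy receptor, had relative log2 values of -0.06 and 0.11 for B, -1.98 and -1.43 for C1, 0.62 and 0.78 for C2, -0.75 and 0.01 for C3, and 0.38 and -0.01 for A. P4ha1, a prolyl hydroxylase of collagen, stood at 0.05 and -0.05 for B, -1.18 and -0.78 for C1, 0.30 and 0.37 for C2, -0.43 and -0.46 for C3, and 0.92 and 0.21 for A. P4ha2, another such enzyme, stood at -0.12 and -0.27 for B, -0.88 and -0.73 for C1, 0.57 and 0.58 for C2, -0.14 and 0.12 for C3, and 0.27 and 0.30 for A. Higd1a, a mitochondrial protein that low oxygen raises, stood at -0.38 and -0.26 for B, -0.88 and -1.12 for C1, 0.10 and 0.36 for C2, -0.08 and 0.55 for C3, and 0.31 and 0.08 for A. The C1 libraries were the lowest for all 4, and C2 held the highest values for Bnip3 and P4ha2.

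Adm, which encodes the vasodilator adrenomedullin, had relative log2 values of 3.0 and 3.0 for B, 0.07 and -0.07 for C1, -2.13 and -2.0 for C2, -4.05 and -4.17 for C3, and 3.83 and 2.56 for A. It was lower at each passage, with no overlap, and the A libraries enclosed both B libraries. Vegfa, the growth factor of blood vessels, stood at 0.96 and 0.98 for B, -0.43 and -0.12 for C1, 0.10 and -0.10 for C2, -0.85 and -0.32 for C3, and 0.20 and 1.55 for A, and its A libraries enclosed both B libraries. Ddit4 (REDD1), an inhibitor of mTOR, stood at 0.35 and 0.36 for B, -0.88 and -1.56 for C1, 0.21 and -0.21 for C2, -2.39 and -1.14 for C3, and 1.37 and 1.92 for A. It was highest in A, and its C1 and C3 libraries overlapped at the low end. Mxi1, an antagonist of Myc, stood at 1.11 and 0.90 for B, -0.75 and -1.2 for C1, 0.62 and 0.58 for C2, -1.04 and -1.1 for C3, and 0.17 and -0.17 for A, highest in B and lowest in C1 and C3. Kdm3a, a histone demethylase, stood at -0.40 and -0.51 for B, -0.12 and 0.12 for C1, 0.73 and 0.97 for C2, 0.16 and 0.75 for C3, and -0.38 and -0.41 for A, and Bnip3l at 0.32 and 0.44 for B, -0.06 and 0.01 for C1, -0.01 and 0.18 for C2, -0.72 and -0.21 for C3, and 0.13 and -0.31 for A. Neither was called in any of the comparisons below.

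**Figure D2:**
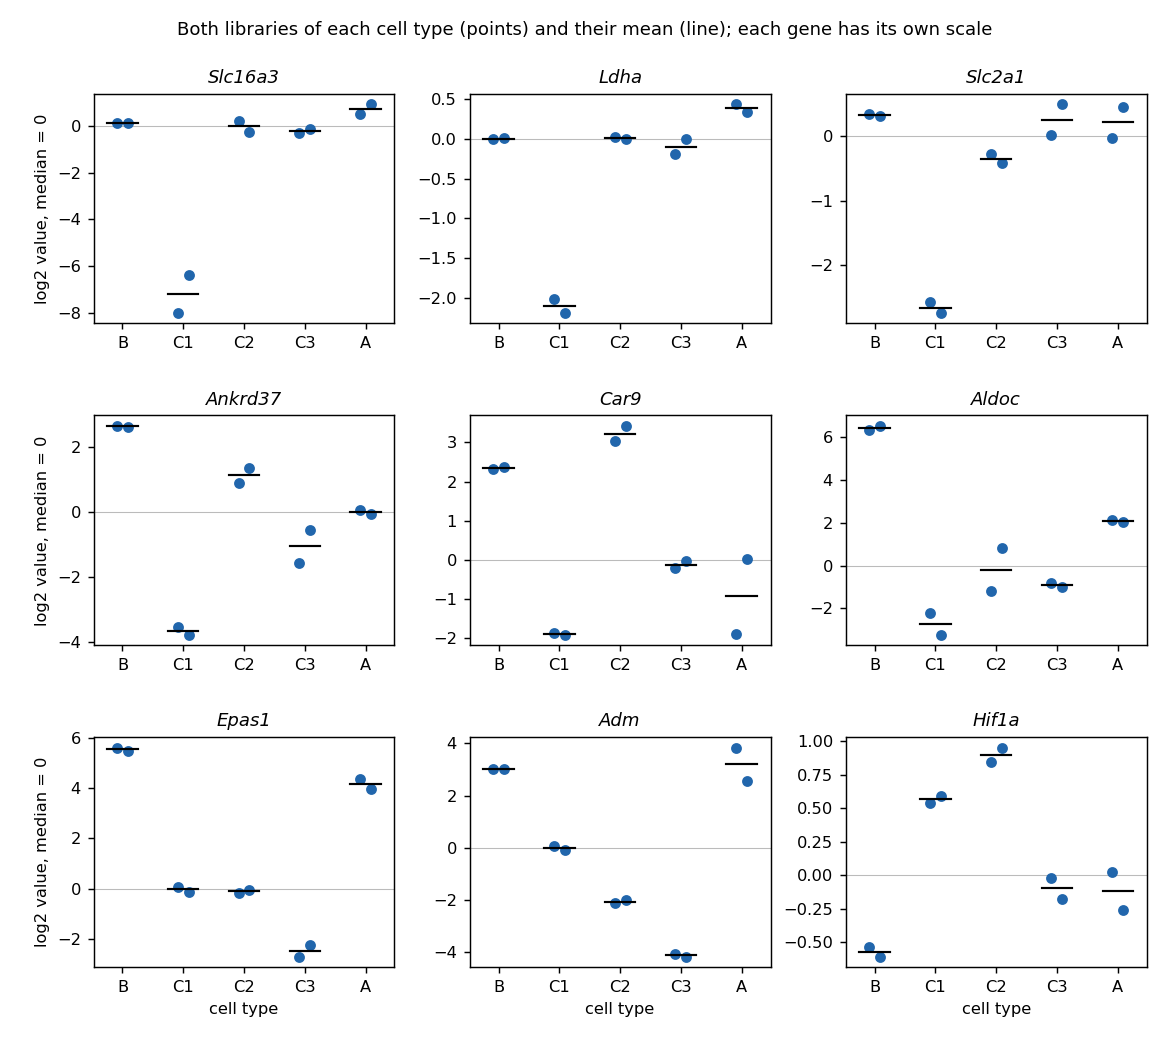
Relative log2 values of 9 genes in both libraries of each type (points) with the type mean (line), each gene on its own scale. Slc16a3, Ldha and Slc2a1 are low in C1 and closer together elsewhere, Ankrd37, Car9 and Aldoc are high in B, and Epas1, Adm and Hif1a follow other orders.

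Promoter sequences are shown for 6 genes of different roles that were low in C1 and higher in C2, because HIF binds a core of ACGTG or GCGTG in many of its targets. The core was searched on both strands in the 250 bases before each start in RefSeq (GRCm38.p6), where it can overlap the E-box CACGTG. An entry was found for 34 of the 38 genes, with 51 promoters, and 40 of those (78.4%) held the core, against 54.1% of the 14076 promoters of genes tested. At least 2 matches were found in 24 of the 51 (47.1%), against 26.1% of all. CACGTG itself was in 5 of the 51, against 7.98% of all promoters. Some genes have several promoters. By gene, 31 of 34 (91.2%) held the core in at least 1 promoter, against 59.9% of genes tested. All 6 genes shown hold it. Tpi1 and Gpi1, also low in C1 and higher in C2, hold 0 matches, and Hif1a, higher in C1 than in B, holds 3. The core is in capitals on either strand in the sequences that follow, given 5′ to 3′ on the strand of the gene.
Slc16a3, chr11:120948817-120949066, plus strand: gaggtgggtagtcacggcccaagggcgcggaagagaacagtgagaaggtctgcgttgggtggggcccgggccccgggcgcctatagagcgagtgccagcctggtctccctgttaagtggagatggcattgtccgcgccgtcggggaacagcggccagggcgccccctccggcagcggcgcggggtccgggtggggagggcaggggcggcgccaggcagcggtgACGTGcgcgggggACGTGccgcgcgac
Egln3, chr12:54203875-54204124, minus strand: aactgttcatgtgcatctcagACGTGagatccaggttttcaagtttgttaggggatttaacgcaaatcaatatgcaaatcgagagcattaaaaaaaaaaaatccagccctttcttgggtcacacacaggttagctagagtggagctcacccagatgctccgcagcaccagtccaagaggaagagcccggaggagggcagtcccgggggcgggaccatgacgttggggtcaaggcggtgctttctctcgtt
Ankrd37, chr8:45999851-46000100, minus strand: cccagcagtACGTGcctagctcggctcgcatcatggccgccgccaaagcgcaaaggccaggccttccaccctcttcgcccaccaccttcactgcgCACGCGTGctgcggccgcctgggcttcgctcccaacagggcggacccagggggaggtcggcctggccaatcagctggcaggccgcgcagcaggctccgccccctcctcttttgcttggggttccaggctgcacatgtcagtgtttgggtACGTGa
Pgk1, chrX:106186850-106187099, plus strand: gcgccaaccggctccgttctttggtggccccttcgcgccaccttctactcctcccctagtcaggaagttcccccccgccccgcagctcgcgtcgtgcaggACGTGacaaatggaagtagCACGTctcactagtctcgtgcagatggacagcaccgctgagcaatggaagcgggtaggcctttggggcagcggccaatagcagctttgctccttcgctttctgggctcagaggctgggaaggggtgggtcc
Bnip3, chr7:138909507-138909756, minus strand: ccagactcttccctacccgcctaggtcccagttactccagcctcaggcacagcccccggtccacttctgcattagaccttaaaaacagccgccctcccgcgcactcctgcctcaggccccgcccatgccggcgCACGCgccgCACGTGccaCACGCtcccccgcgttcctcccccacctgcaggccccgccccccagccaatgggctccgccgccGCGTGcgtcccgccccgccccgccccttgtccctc
Car9, chr4:43506776-43507025, plus strand: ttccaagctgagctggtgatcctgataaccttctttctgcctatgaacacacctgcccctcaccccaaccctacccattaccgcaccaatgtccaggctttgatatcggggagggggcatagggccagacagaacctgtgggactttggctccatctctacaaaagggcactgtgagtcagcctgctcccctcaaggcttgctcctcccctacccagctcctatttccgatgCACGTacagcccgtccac
Counted from the start, with -1 the base before it, the match nearest the start lies at -14 in Slc16a3, -6 in Ankrd37 and -18 in Car9. Positions are those of the 5′ base of the match. Egln3 has a single match at -229, Pgk1 has matches at -150 and -131, and Bnip3 has 5, of which a pair lies in an E-box. A match is a stretch of letters and not a measured binding site. Slc2a3, Bnip3l, Ndrg1 and Epas1 are named only.

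The first comparison along the passages asked how C1 differed from the B-type cells that the labels give as its origin. Most genes of glycolysis and many HIF targets were lower in C1. On the log2 scale the aldolase Aldoc fell by 9.18, the lactate exporter Slc16a3 by 7.32, the HIF target Ankrd37 by 6.28 and the oxygen sensor Egln3 by 6.27. The glucose transporter Slc2a1 fell by 2.98 and Ldha by 2.10. Of the 38 genes, 28 were lower and 3 higher in C1 than in B, where a call needed an adjusted p under 0.05 by limma and a log2 difference of at least 1. Over all genes tested, 21.1% were lower and 12.6% higher. The median log2 difference was -1.82 over the 38 genes and -0.07 over all genes. By role, both glucose transporters, 8 of 11 genes of upper glycolysis, 4 of 5 of lower glycolysis, 3 of 3 of lactate and pyruvate fate, 1 of 2 HIF subunits, both oxygen sensors and 8 of 13 other HIF targets were lower. The 7 genes not called were Hk1, Hk2, Bnip3l, P4ha1, P4ha2, Kdm3a and Higd1a.

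The largest log2 difference of C1 minus B was that of Aldoc, at -9.18 ± 0.62 (SE, adjusted p = 6.17e-05). Slc16a3 followed at -7.32 ± 0.49 (SE, adjusted p = 5.85e-05), which is 159-fold lower in C1. Ankrd37 had a log2 difference of -6.28 ± 0.33 (SE, adjusted p = 2.17e-05), and Egln3 of -6.27 ± 0.46 (SE, adjusted p = 8.5e-05). These 4 span lactate export, a glycolytic isoenzyme, an oxygen sensor and a HIF target. Epas1 was lower, at -5.58 ± 0.21 (SE, adjusted p = 5.69e-06). Car9 was at -4.23 ± 0.54 (SE, adjusted p = 0.000784), Ndrg1 at -3.47 ± 0.46 (SE, adjusted p = 0.000916) and Adm at -3.0 ± 0.36 (SE, adjusted p = 0.00065). After quantile normalization the log2 differences of Aldoc, Epas1 and Adm shrank to -5.80, -2.86 and -1.69 and kept their calls.

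Among genes of general glycolysis, Slc2a1 had a log2 difference of -2.98 ± 0.22 (SE, adjusted p = 8.74e-05), or 7.89-fold lower in C1. Ldha was at -2.1 ± 0.14 (SE, adjusted p = 5.2e-05), or 4.3-fold lower. Gapdh was at -1.18 ± 0.15 (SE, adjusted p = 0.000885) and missed the minimum of 1, at -0.99, without C1 replicate 1. Against that direction, Eno2 rose in C1 with a log2 difference of 1.23 ± 0.21 (SE, adjusted p = 0.00293), Pfkm with 1.2 ± 0.25 (SE, adjusted p = 0.00606) and Hif1a with 1.14 ± 0.15 (SE, adjusted p = 0.000843). Hif1a and 2 tissue isoforms were thus higher in C1, where most of the set was lower, the other HIF subunit gene Epas1 included.

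Other genes of both pathways were counted from lists of textbook members. Of 46 other hypoxia and HIF genes tested, 21 were lower and 3 higher in C1, with a median log2 difference of -0.98. Cxcr4, a chemokine receptor, was at -10.04 ± 0.67 (SE, adjusted p = 5.81e-05) and Kdr, a receptor of VEGF that is also an endothelial marker, at -7.69 ± 0.57 (adjusted p = 8.74e-05). Both lay at or near the floor in C1, which bears on the size of these differences. Of 28 other genes of glucose metabolism, 10 were lower and 4 higher, with a median log2 difference of 0.02, against -1.82 over the 38 genes. At an unadjusted p under 0.05 by limma, 13 were lower and 11 higher. The largest differences were those of Hk3, a hexokinase of blood cells, at -12.53 ± 1.97 (adjusted p = 0.00193) and Pygl, glycogen phosphorylase, at -3.48 ± 0.25 (adjusted p = 7.93e-05). The 3 genes of known level in this list, Hk3 among them, summed to 17.4 and 17.5 normalized reads in C1. There 1 and 2 of them lay at the floor, which bears on the size for Hk3. Of 19 subunits of the respiratory chain, 1 was lower and 1 higher: Sdhb at -1.48 ± 0.17 (adjusted p = 0.000519) and Ndufa4 at 1.18 ± 0.15 (adjusted p = 0.000892).

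Other marker lists moved with this comparison. Of 13 white blood cell and macrophage markers tested, 13 were lower in C1, and the 5 of known level summed to 8.05 and 6.67 normalized reads in C1, with 2 and 4 of them at the floor, and to 24200 and 23440 in B. Endothelial markers were lower for 8 of 9 and cell cycle genes for 11 of 14, with Mki67 at -2.78 ± 0.27 (adjusted p = 0.000274). Their part in the result was not tested, and in RNA of whole samples fewer cells of a type and less RNA per cell cannot be told apart. The Xist and Y-linked RNA given above differed between B and C1 too, and their part was not tested.

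C1 was also set against A, the primary c-kit+/CD45- cells, which carry the same marker label as C1. Genes of glucose uptake, lactate handling and oxygen sensing were lower in C1 here too, while 5 of 11 genes of upper and 2 of 5 of lower glycolysis were not called. In all, 24 of the 38 genes were lower and 0 higher in C1, against 16.6% lower and 10.1% higher over all genes. At an unadjusted p under 0.05 by limma, 28 were lower and 1 higher. The median log2 difference was -1.46 over the 38 genes and -0.04 over all genes. Both glucose transporters, 6 of 11 genes of upper glycolysis, 3 of 5 of lower glycolysis, 3 of 3 of lactate and pyruvate fate, 1 of 2 HIF subunits, both oxygen sensors and 7 of 13 other HIF targets were lower. This comparison shares the C1 libraries with the one before, so both hold the same low C1 values. Because the A libraries differed so much, each was left out in turn: 27 genes were lower without A replicate 1 and 25 without A replicate 2.

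Slc16a3 had a log2 difference of -7.93 ± 0.49 (SE, adjusted p = 9.54e-05), or 243-fold lower in C1. Aldoc was at -4.83 ± 0.62 (SE, adjusted p = 0.00138), Egln3 at -4.26 ± 0.46 (SE, adjusted p = 0.000726), Epas1 at -4.18 ± 0.21 (SE, adjusted p = 4.11e-05) and Ankrd37 at -3.65 ± 0.33 (SE, adjusted p = 0.000371). Adm was at -3.19 ± 0.36 (SE, adjusted p = 0.000862), and Ddit4, the mTOR inhibitor that was highest in A, was at -2.86 ± 0.44 (SE, adjusted p = 0.00268). With Slc2a1, these 7 are the genes with the largest falls. Slc2a1 was at -2.87 ± 0.22 (SE, adjusted p = 0.000212) and Ldha at -2.49 ± 0.14 (SE, adjusted p = 6.21e-05). Gapdh and Hif1a did not reach the minimum of 1, with log2 differences of -0.70 ± 0.15 (SE, adjusted p = 0.0106) and 0.69 ± 0.15 (SE, adjusted p = 0.00945). Car9 and Ndrg1, lower in C1 than in B and singled out here after their values were seen, had log2 differences of -0.95 ± 0.54 (SE, adjusted p = 0.191) and -0.47 ± 0.46 (SE, adjusted p = 0.427) against A.

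Of the 46 other hypoxia and HIF genes, 19 were lower and 3 higher in C1 than in A, with Cox4i2, a respiratory chain subunit raised by low oxygen, at -6.25 ± 0.36 (adjusted p = 7.35e-05) and Tek, the receptor TIE2 and also an endothelial marker, at -5.69 ± 0.51 (adjusted p = 0.000371). The 28 other genes of glucose metabolism were split, 5 lower and 6 higher, with Hkdc1, a hexokinase-like protein, at 3.48 ± 0.67 (adjusted p = 0.00647) and Pygl at -2.86 ± 0.25 (adjusted p = 0.000347). Cell cycle genes were lower for 11 of 14, led by Plk1 at -3.60 ± 0.34 (adjusted p = 0.000447). Fibroblast markers were lower for 8 of 12, led by Thy1 at -12.55 ± 0.22 (adjusted p = 1.54e-06). Endothelial markers were lower for 6 of 9, and smooth muscle markers were lower for 5 of 8 and higher for 1. Epicardial and mesothelial markers were higher for 5 of 10 and lower for 2, led by Msln at 4.89 ± 0.44 (adjusted p = 0.000371). Of the white blood cell markers 2 of 13 were lower. Cox4i2, Tek and Thy1 lay at or near the floor in C1, which bears on the size of their differences. Hkdc1 was 1 of 3 genes of known level in its list, which summed to 17.4 and 17.5 normalized reads in C1. In A, 2 and 1 of the 3 lay at the floor, so the size of the Hkdc1 difference also rests on low values. The part of these lists in the result was not tested.

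**Figure D3:**
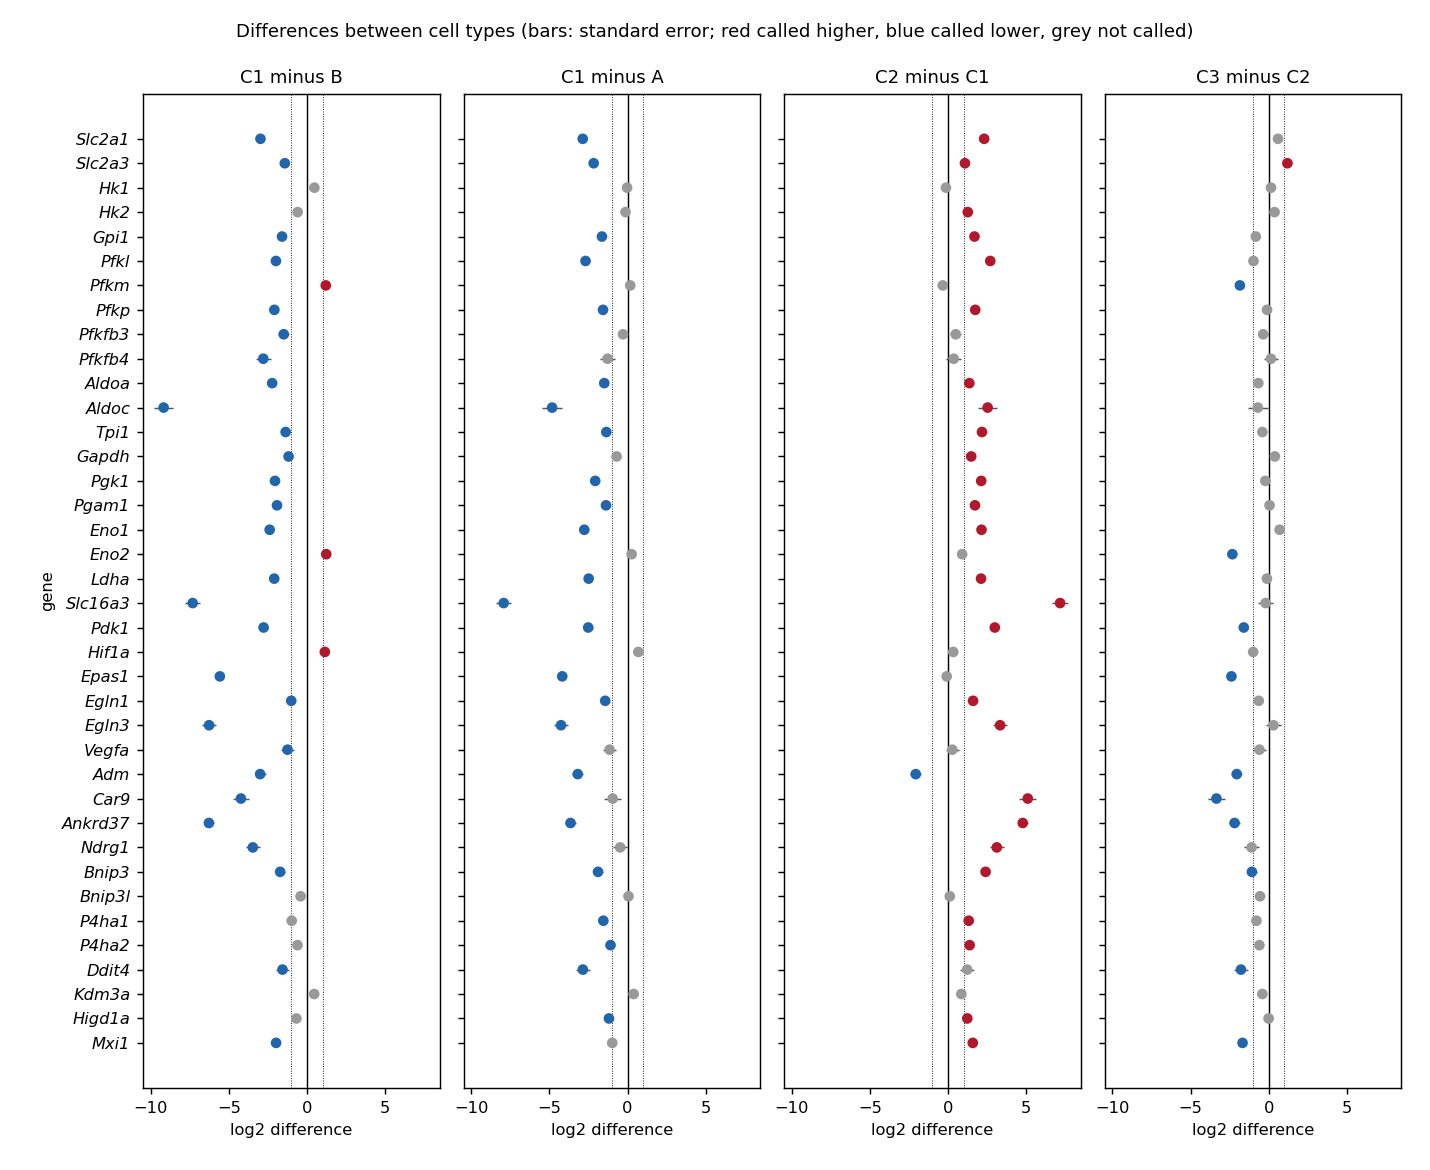
Log2 differences of the 38 genes in 4 comparisons, with standard errors from limma as bars, called genes in red (higher) and blue (lower), and dotted lines at -1 and 1. Blue points fill C1 minus B (28 genes) and C1 minus A (24), red points fill C2 minus C1 (26), and C3 minus C2 has 10 blue points and 1 red.

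Between passage 6 and passage 8 the set was higher again. In C2 the lactate exporter Slc16a3 rose by a log2 difference of 7.17, the acid-exporting Car9 by 5.10 and Ankrd37 by 4.78, and among the common enzymes Pfkl rose by 2.7 and Ldha by 2.11. Of the 38 genes, 26 were higher and 1 lower in C2 than in C1, against 12.2% higher and 8.18% lower over all genes. The median log2 difference was 1.53 over the 38 genes and 0.00 over all genes. Both glucose transporters, 7 of 11 genes of upper glycolysis, 4 of 5 of lower glycolysis, 3 of 3 of lactate and pyruvate fate, both oxygen sensors and 8 of 13 other HIF targets were higher, and neither HIF subunit was called. The C1 libraries are again the lower side, so the values of this comparison share them with those above.

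The log2 difference of Slc16a3 was 7.17 ± 0.49 (SE, adjusted p = 0.000188), which is 144-fold higher in C2. Car9 rose by 5.1 ± 0.54 (SE, adjusted p = 0.000854) and Ankrd37 by 4.78 ± 0.33 (SE, adjusted p = 0.000188). The oxygen sensor Egln3 rose by 3.33 ± 0.46 (SE, adjusted p = 0.00236) and Ndrg1 by 3.12 ± 0.46 (SE, adjusted p = 0.00288). Lactate export, acid export and oxygen sensing are among the roles of these genes. Pdk1 rose by 2.99 ± 0.30 (SE, adjusted p = 0.0007) and Pfkl by 2.7 ± 0.22 (SE, adjusted p = 0.000342). Aldoc rose by 2.53 ± 0.62 (SE, adjusted p = 0.0198), and this call was lost at 2.32 after quantile normalization (adjusted p = 0.0611), at 2.53 with the 4 libraries alone (adjusted p = 0.121) and at 2.03 without C1 replicate 2 (adjusted p = 0.109). Without C2 replicate 2 it was 1.52 (adjusted p = 0.0438).

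Slc2a1 rose by a log2 difference of 2.31 ± 0.22 (SE, adjusted p = 0.000603), Ldha by 2.11 ± 0.14 (SE, adjusted p = 0.000168) and Gapdh by 1.48 ± 0.15 (SE, adjusted p = 0.00082). Adm was the gene that fell, with -2.07 ± 0.36 (SE, adjusted p = 0.00577). The genes for the HIF subunits had differences of 0.33 ± 0.15 (SE, adjusted p = 0.125) for Hif1a and -0.09 ± 0.21 (SE, adjusted p = 0.785) for Epas1. Neither passed the test.

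Of the 46 other hypoxia and HIF genes, 17 were higher and 2 lower in C2, with a median log2 difference of 0.78. Hif3a, another HIF subunit, was at 6.17 ± 0.29 (adjusted p = 5.46e-05) and Cox4i2 at 5.58 ± 0.36 (adjusted p = 0.000166), both at or near the floor in C1. Of 28 other genes of glucose metabolism, 4 were higher and 2 lower, with a median log2 difference of -0.11, against 1.53 over the 38 genes. Gys1, glycogen synthase, was at 2.91 ± 0.17 (adjusted p = 0.000112) and Pdk4, a pyruvate dehydrogenase kinase, at -2.18 ± 0.29 (adjusted p = 0.00197). No respiratory chain subunit of 19 was called by limma, and 3 were higher and 5 lower at an unadjusted p under 0.05. Cell cycle genes moved with the set: 13 of 14 were higher in C2, with a median log2 difference of 2.54, led by Mki67 at 3.73 ± 0.27 (adjusted p = 0.000235). Fibroblast markers were higher for 5 of 12 and lower for 3, with Lum at 10.01 ± 1.07 (adjusted p = 0.000908), endothelial markers higher for 4 of 9 and smooth muscle markers for 3 of 8. Of 13 macrophage markers 0 were called by limma, with 0 higher and 2 lower at an unadjusted p under 0.05, and the 5 of known level summed to 5.04 to 8.08 normalized reads in the C2 and C1 libraries. The part of the other lists in the result was not tested.

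From passage 8 to passage 10 17 of the 21 glycolytic genes were not called, and part of the HIF targets were lower. In C3 the carbonic anhydrase Car9 fell by 3.34 on the log2 scale, Epas1 by 2.38 and Eno2 by 2.32, and the glucose transporter Slc2a3 rose by 1.2. There were 10 of the 38 genes lower and 1 higher in C3 than in C2, against 16.2% lower and 11.6% higher over all genes. The median log2 difference was -0.59 over the 38 genes and 0.00 over all genes. Of the 21 glycolytic genes 3 were lower and 1 higher, while 6 of 13 other HIF targets and 1 of 2 HIF subunits were lower and neither oxygen sensor was called. The share of genes called lower, 26.3%, is nearer to that of all genes than in the comparisons with C1.

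Car9 had a log2 difference of -3.34 ± 0.54 (SE, adjusted p = 0.00283), Epas1 of -2.38 ± 0.21 (SE, adjusted p = 0.000279) and Eno2 of -2.32 ± 0.21 (SE, adjusted p = 0.000346). Ankrd37 was lower at -2.18 ± 0.33 (SE, adjusted p = 0.00215) and Adm at -2.04 ± 0.36 (SE, adjusted p = 0.00425). These genes act in acid export, HIF signalling, glycolysis and vessel tone. Adm stood at -0.13 (adjusted p = 0.891) after quantile normalization, so its call rests on leaving that step out, and Epas1 shrank to -1.51 there. Pfkm was lower at -1.84 ± 0.25 (SE, adjusted p = 0.0014), Mxi1 at -1.67 ± 0.20 (SE, adjusted p = 0.000879) and Ddit4 at -1.77 ± 0.44 (SE, adjusted p = 0.0163). Ddit4 missed the threshold with the 4 libraries alone, without C2 replicate 1 and without C3 replicate 1, where its log2 difference was -1.77, -1.56 and -1.14. The other genes called lower were Pdk1 and Bnip3.

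Slc2a3 rose in C3 by 1.2 ± 0.27 (SE, adjusted p = 0.0109), and it was not called without C2 replicate 1 (0.91, adjusted p = 0.0631) or without C3 replicate 1 (1.04, adjusted p = 0.0658). Slc2a1, Ldha and Gapdh had log2 differences of 0.60 ± 0.22 (SE, adjusted p = 0.062), -0.11 ± 0.14 (SE, adjusted p = 0.563) and 0.40 ± 0.15 (SE, adjusted p = 0.0694). Hif1a, at -0.99 ± 0.15 (SE, adjusted p = 0.00202), fell just short of the minimum of 1. It was called lower after quantile normalization (-1.36, adjusted p = 0.00156), without C2 replicate 1 (-1.05, adjusted p = 0.0119) and without C3 replicate 1 (-1.08, adjusted p = 0.00944).

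Of the 46 other hypoxia and HIF genes, 11 were lower and 5 higher in C3, with Ppp1r3c, a glycogen-targeting subunit, at -6.80 ± 0.56 (adjusted p = 0.000236) and Hif3a at -6.17 ± 0.29 (adjusted p = 3.5e-05). Hif3a lay at or near the floor in C3, which bears on the size of its difference. Of the 8 genes of known level in this list, 6 were at the floor in each C3 library. Of 28 other genes of glucose metabolism, 4 were lower and 2 higher, with Pygl at -4.44 ± 0.25 (adjusted p = 6.54e-05) and Pdk2, a pyruvate dehydrogenase kinase, at -3.25 ± 0.21 (adjusted p = 9.13e-05). Cell cycle genes were higher for 12 of 14, with a median log2 difference of 1.45, while the median of the 38 genes was -0.59. Fibroblast markers were lower for 12 of 12, led by Postn at -6.22 ± 0.38 (adjusted p = 8.42e-05), and epicardial and mesothelial markers were higher for 6 of 10, led by Krt19 at 5.79 ± 0.82 (adjusted p = 0.00175). Smooth muscle markers were lower for 3 of 8. Their part in the result was not tested, and the Y-linked RNA given above differed between these cultures too.

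Over the whole span from passage 6 to passage 10, genes of glucose uptake and lactate production were higher in C3, and Adm, Epas1, Pfkm and Eno2 were lower. Of the 38 genes, 20 were higher and 4 lower in C3 than in C1, against 17.1% higher and 17.7% lower over all genes, with a median log2 difference of 1.28 against 0.00. Both glucose transporters, 5 of 11 genes of upper glycolysis, 4 of 5 of lower glycolysis, 3 of 3 of lactate and pyruvate fate, 1 of 2 oxygen sensors and 5 of 13 other HIF targets were higher. This comparison shares its libraries with the preceding ones along the passages. Leaving out C1 replicate 1 brought the genes called higher to 16.

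Slc16a3 had a log2 difference of 6.98 ± 0.49 (SE, adjusted p = 6.28e-05), Egln3 of 3.63 ± 0.46 (SE, adjusted p = 0.000711) and Slc2a1 of 2.92 ± 0.22 (SE, adjusted p = 8.3e-05). Eno1 rose by 2.84 ± 0.21 (SE, adjusted p = 6.98e-05) and Ankrd37 by 2.6 ± 0.33 (SE, adjusted p = 0.000686). Lactate export, oxygen sensing and glucose entry led this list. Slc2a3 rose by 2.28 ± 0.27 (SE, adjusted p = 0.000518) and Ldha by 2.0 ± 0.14 (SE, adjusted p = 5.76e-05). Ndrg1 rose by 2.03 ± 0.46 (SE, adjusted p = 0.00858), a call lost with the 4 libraries alone (adjusted p = 0.0691) and without C1 replicate 1 (1.69, adjusted p = 0.0551). Gapdh rose by 1.88 ± 0.15 (SE, adjusted p = 0.000109).

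Adm and Epas1 were lower: Adm had a log2 difference of -4.11 ± 0.36 (SE, adjusted p = 0.000149) and Epas1 of -2.47 ± 0.21 (SE, adjusted p = 0.000117), which shrank to -2.73 and -1.63 after quantile normalization. The isoforms Pfkm and Eno2 fell, at -2.18 ± 0.25 (SE, adjusted p = 0.000409) and -1.41 ± 0.21 (SE, adjusted p = 0.00149). Hif1a was at -0.66 ± 0.15 (SE, adjusted p = 0.008), under the minimum of 1. Of the 46 other hypoxia and HIF genes 11 were higher and 7 lower in C3, with the VEGF receptors Flt1 at 5.82 ± 0.67 (adjusted p = 0.000471) and Kdr at 5.26 ± 0.57 (adjusted p = 0.000348). Of 28 other genes of glucose metabolism 7 were higher and 8 lower, with Pygl at -4.53 ± 0.25 (adjusted p = 2.8e-05) and Pdk2 at -3.08 ± 0.21 (adjusted p = 5.35e-05). Cell cycle genes were higher for 14 of 14, with a median of 4.18, and epicardial and mesothelial markers for 8 of 10, and fibroblast markers were lower for 8 of 12. Their part was not tested.

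The 2 primary cell types, obtained with weak and with strong digestion, differed in a few HIF targets and in an aldolase, and most of the set was not called. In B the brain-type aldolase Aldoc was higher by 4.35 on the log2 scale, Car9 by 3.27, Ndrg1 by 3.0 and Ankrd37 by 2.63, while Slc2a1 and Ldha were not called. Of the 38 genes, 9 were higher and 1 lower in B than in A, against 14.5% higher and 12.4% lower over all genes. After quantile normalization 3 were higher and 2 lower, against 1484 higher and 1714 lower of the 14253 genes tested, so the share called higher then lay below that of all genes. The median log2 difference was 0.00 over the 38 genes and 0.01 over all genes. Of the 21 glycolytic genes 3 were higher and 1 lower, and 4 of 13 other HIF targets, 1 of 2 oxygen sensors and 1 of 2 HIF subunits were higher. Without A replicate 1 or without A replicate 2, 7 genes were called higher and 1 lower.

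Aldoc had a log2 difference of 4.35 ± 0.62 (SE, adjusted p = 0.00192), which was 1.22 (adjusted p = 0.30) after quantile normalization. Car9 was higher at 3.27 ± 0.54 (SE, adjusted p = 0.00329), a call lost with the 4 libraries alone (adjusted p = 0.0641). Ndrg1 was at 3.0 ± 0.46 (SE, adjusted p = 0.00246) and Ankrd37 at 2.63 ± 0.33 (SE, adjusted p = 0.00114), with 1.54 for Ankrd37 after quantile normalization. Car9, Ndrg1 and Ankrd37 kept their calls after quantile normalization, and the aldolase did not. Egln3 was at 2.01 ± 0.46 (SE, adjusted p = 0.0129), and it lost its call after quantile normalization (0.99), without A replicate 1 (1.63) and without B replicate 1 or 2 (2.01 and 2.0). Epas1 was at 1.4 ± 0.21 (SE, adjusted p = 0.00211) and stayed at 1.40 with library medians set to 0. It turned to -1.15 after quantile normalization, so its direction depends on that step.

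Pfkfb4 was higher in B by a log2 difference of 1.53 ± 0.47 (SE, adjusted p = 0.0377), with 0.74 without A replicate 1 and 2.31 without A replicate 2, and its call was lost under most alternatives. Pfkfb3 was at 1.19 ± 0.35 (SE, adjusted p = 0.0332), with 0.75 and no call without A replicate 2 (adjusted p = 0.119). The call of Pfkfb3 was also lost after quantile normalization (adjusted p = 0.0886), with the 4 libraries alone (0.107), with the replicate block (0.0517), without B replicate 1 or 2 (0.123 and 0.114) and without either C2 library (0.0558). For both genes the A libraries lay far apart. Pfkm was lower, at -1.03 ± 0.25 (SE, adjusted p = 0.015), and not called without B replicate 1 (-0.87) or without A replicate 1 (-1.0, just under the minimum in size). Mxi1, at 1.0 ± 0.20 (SE, adjusted p = 0.00688), was the remaining gene called higher, at the minimum of 1, and it was not among the 3 called after quantile normalization. Slc2a1, Gapdh, Ldha and Hif1a had log2 differences of 0.11 ± 0.22 (SE, adjusted p = 0.712), 0.48 ± 0.15 (SE, adjusted p = 0.0443), -0.39 ± 0.14 (SE, adjusted p = 0.0601) and -0.45 ± 0.15 (SE, adjusted p = 0.0465), and none was called.

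Of the 46 other hypoxia and HIF genes, 6 were higher and 5 lower in B, with Kdr at 6.72 ± 0.57 (adjusted p = 0.000248) and Cxcr4 at 5.48 ± 0.67 (adjusted p = 0.00106). Of 28 other genes of glucose metabolism, 5 were higher and 1 lower, with Hk3 at 8.16 ± 1.97 (adjusted p = 0.0155) and Pdp1, a pyruvate dehydrogenase phosphatase, at 1.84 ± 0.33 (adjusted p = 0.0048). The 3 genes of known level in that list, Hk3 among them, summed to 6001 and 5895 normalized reads in B. In A they summed to 3.68 and 261, with 2 and 1 of them at the floor. The A libraries lay far apart in that sum, which bears on the size for Hk3. White blood cell and macrophage markers were higher for 13 of 13, with 24200 and 23440 summed normalized reads of 5 genes in B and 17.1 and 405 in A, where 2 and 0 of those 5 lay at the floor. Epicardial and mesothelial markers were higher for 6 of 10 and fibroblast markers lower for 7 of 12. Their part in the result was not tested.

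**Figure D4:**
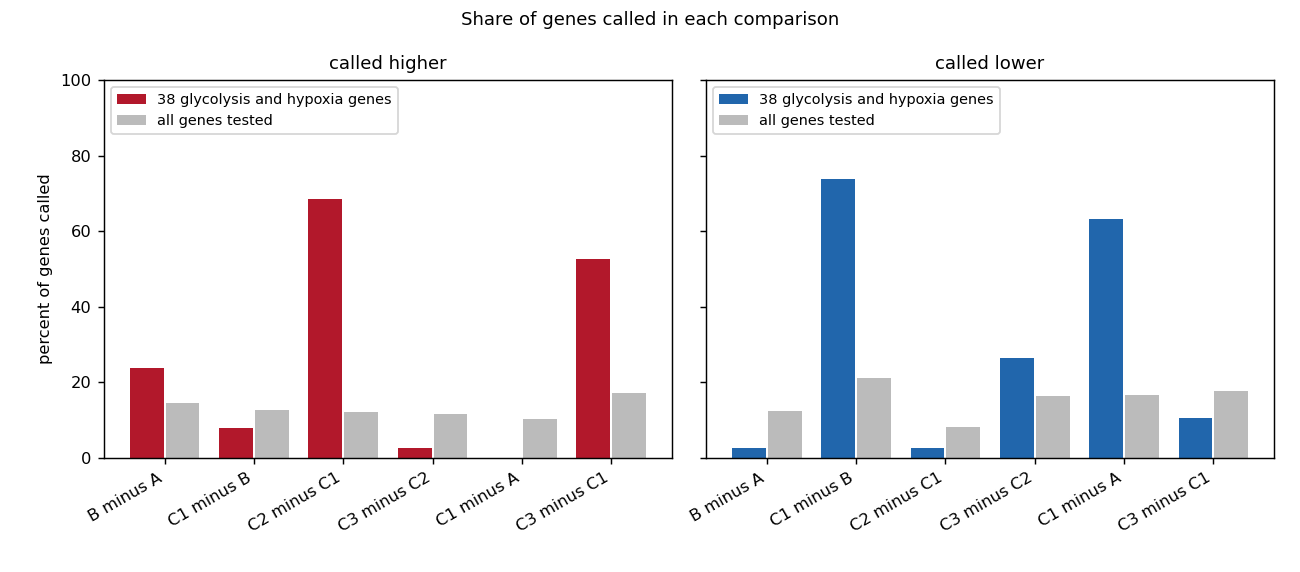
Percent of the 38 genes (coloured bars) and of all genes tested (grey bars) called higher (left) and lower (right) in each of 6 comparisons, on an axis that starts at 0. The coloured bars reach 73.7% lower in C1 minus B, 63.2% lower in C1 minus A and 68.4% higher in C2 minus C1, and lie nearer to the grey bars in B minus A and C3 minus C2.

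Quantile normalization, which gives every library the same distribution of values, moved the balance of calls over all genes. Library medians set to 0 hardly moved it, with 1826 higher and 2985 lower in C1 minus B. After quantile normalization the genes called higher and lower over the whole table were 2290 and 2240 in C1 minus B, against 1799 and 3005 as deposited. They were 2217 and 2105 in C1 minus A, against 1433 and 2365. In C2 minus C1 they were 1948 and 2014, against 1740 and 1166, and in C3 minus C2 2079 and 1865, against 1656 and 2315. The 38 genes held their balance under it in these 4 comparisons, with 3 higher and 26 lower in C1 minus B, 0 and 24 in C1 minus A, 27 and 1 in C2 minus C1, and 1 and 12 in C3 minus C2.

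The size of the largest falls in C1 has a limit. The 3 reads that a count of 0 allows are 3.02 and 2.00 normalized reads in the C1 libraries, and a level is known only as a lower bound. For Slc16a3 the lower bounds are 1 and 3.15 normalized reads in C1 and 285 and 280 in B, and for Egln3 they are 1 and 2.48 in C1, so replicate 2 lay above its limit for both genes and replicate 1 cannot be placed. Both C1 libraries lay above their limits for Epas1, with at least 6.91 and 6.04, and for Adm, with at least 18.9 and 17.1. For Aldoc and Ankrd37 the bounds in C1 do not reach the limits, at 2.02 and 1 for Aldoc and 1.17 and 1 for Ankrd37. The same holds for Car9, at 1.04 and 1, and for Ndrg1, at 1 and 1.62. In the further hypoxia list 8 genes were of known level, Cxcr4, Kdr, Tek, Cox4i2 and Hif3a among them. They summed to 8.01 and 9.02 normalized reads in C1, with 7 at the floor in each library. Thy1 stood at 1.008 and 1 in C1. The sizes of their differences against C1 thus depend on the floor. Counts of some genes may hold reads of others: the library kit does not mark strand, and 13 of the 38 genes share exon bases with another gene, Pfkp with Pitrm1 over 748 bases and Ankrd37 with Lrp2bp over 101 among them. Gapdh, Pgk1, Ldha, Tpi1, Pgam1 and Eno1 have processed pseudogenes, and the sources used here do not give how reads shared with these were counted.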

How the data were processed

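RNA-seq libraries of 10 samples were prepared from total RNA with a TruSeq kit. Per the submitters' processing notes, TopHat, DESeq and mm10 were used, without version or role, and the sources used here do not name a read counter. Values in the deposited table are log2. From the values themselves they were read as size-scaled counts, raised to 1 where lower, minus the median of each gene over the libraries: 17821 of 17821 genes with values have a median of 0, to within 1e-05. Of low values 26.6% to 66.9% per library lay within 0.01 of whole reads, so counts could not be recovered and no count test was run. The total of reads per library is unknown.

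Genes were removed where a known level did not reach 10 normalized reads in 2 libraries, and 17 with a date in a cell were left out. limma (3.58.1, R 4.3.3) was fitted to all 10 libraries with a mean per type, 5 residual degrees of freedom, empirical Bayes spread (1.93 prior degrees of freedom, prior SD 0.211) and two-sided tests, adjusted by the Benjamini-Hochberg method over 14253 genes in each comparison. A call needed an adjusted p under 0.05 together with a log2 difference of 1 or more in size. No pseudocount was added and no trend of spread with level was fitted, since the table is on a log2 scale without levels. The script was tested on simulated data.

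Named in each comparison were up to 8 called genes of the set with the largest differences in each direction, and Slc2a1, Gapdh, Ldha, Hif1a and Epas1 always, with at most 2 genes of each further list; a gene outside this rule is named where a count is listed out. The genes of the set, the further lists and the tests were chosen with earlier results of these data known. The alternatives were quantile normalization, library medians set to 0, no filter, a robust spread, no minimum difference, a fit of the 4 libraries compared, a replicate block and each library left out. Replicate numbers were taken from the sample titles. Exon overlaps come from GENCODE vM21 and promoters from RefSeq.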

Additional observations from a re-analysis of the deposited data

How the results depend on the processing

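Of 1398 alternative values of the 79 named differences, 1346 kept their direction and their side of the threshold, 40 lost the call, 9 gained one and 3 changed sign. The sign changes were Epas1 in B minus A, at -1.15 after quantile normalization, Slc2a1 in B minus A, at -0.12 without A replicate 1 (0.35 without A replicate 2), and Epas1 in C2 minus C1, at 0.01 without C1 replicate 1 (-0.18 without C1 replicate 2); the cause was not tested. Counts of the 38 genes moved by over 1.5 times in these cases. In B minus A, quantile normalization gave 3 higher and 2 lower, the 4 libraries alone 5 higher, and no minimum difference 5 lower. With no minimum difference C3 minus C2 had 2 higher and 17 lower, and C1 minus A had 1 higher. Over all genes, the 4 libraries alone gave 2538 calls in B minus A and 2375 in C1 minus A, a fit with fewer residual degrees of freedom. No minimum difference, a looser rule, gave 7336 calls in C1 minus B, 5025 in C2 minus C1, 6358 in C3 minus C2, 6201 in C1 minus A and 7483 in C3 minus C1. With 1 library left out, the lone sample of its type was assumed to vary like the other types. The genes of the set called then numbered 5 to 8 higher and 0 to 2 lower in B minus A, 3 higher and 24 to 28 lower in C1 minus B, 23 to 27 higher and 1 lower in C2 minus C1, 0 to 1 higher and 9 to 12 lower in C3 minus C2, 0 higher and 24 to 27 lower in C1 minus A, and 16 to 20 higher and 4 lower in C3 minus C1. The 5 was without B replicate 1, which also gave the 0, and the 2 were without B replicate 2 or either C3 library. The 0 in C3 minus C2 was without C2 replicate 1 or C3 replicate 1.

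The replicate numbers pair the samples only by name, with correlations of deviations from -0.0609 to 0.0892. With the replicate number as a block, the genes called were 8 higher and 1 lower in B minus A, 3 and 28 in C1 minus B, 26 and 1 in C2 minus C1, 1 and 10 in C3 minus C2, 0 and 25 in C1 minus A, and 19 and 4 in C3 minus C1, and Pfkfb3 lost its call in B minus A (adjusted p = 0.0517). A fit without both A libraries, chosen after seeing the data, gave 3 higher and 28 lower in C1 minus B, 26 and 1 in C2 minus C1, 1 and 10 in C3 minus C2, and 19 and 4 in C3 minus C1. Depth limits the largest differences: a gene absent from a library is bounded only at 3 reads.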

Other observations

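Some genes of glucose metabolism outside the set, chosen after their values were seen, are given as values. Pkm, the pyruvate kinase that ends glycolysis, had relative log2 values of 0.26 and 0.26 for B, -1.2 and -1.24 for C1, -0.03 and -0.22 for C2, 0.03 and 0.07 for C3, and -0.21 and 0.38 for A. Like most of the enzymes before it, it had both C1 libraries below the other 8, with a log2 difference of -1.48 ± 0.20 in C1 minus B (SE, limma adjusted p = 0.00102) and 1.10 in C2 minus C1 (adjusted p = 0.00667).

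Slc16a1 (MCT1), the more widespread lactate carrier, went the other way from Slc16a3 in C1. It stood at -1.21 and -1.06 for B, -0.13 and 0.13 for C1, 0.17 and 0.19 for C2, 1.56 and 1.23 for C3, and -2.0 and -1.74 for A. C1 was higher than B by a log2 difference of 1.14 ± 0.18 (adjusted p = 0.00193) and higher than A by 1.87 (adjusted p = 0.00047), and C3 was higher than C2 by 1.21 (adjusted p = 0.00199). Ldhb, the lactate dehydrogenase subunit known from heart, had -0.21 and -0.19 for B, 0.03 and 0.64 for C1, 0.79 and 1.02 for C2, -1.68 and -2.15 for C3, and 0.40 and -0.03 for A. It was not called in C1 minus B, at 0.54 (adjusted p = 0.137), where Ldha fell by 2.10, and it fell by 2.82 in C3 minus C2 (adjusted p = 0.000402), where Ldha had -0.11 (adjusted p = 0.563).

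Over the 19 subunits of the respiratory chain the median log2 difference stayed between -0.14 and 0.33 in the 6 comparisons, and at most 2 of 19 were called in any of them.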
